A study of Mus musculus with 12 samples.

Results

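The clustered protocadherins are 58 genes of the alpha, beta and gamma clusters in the GENCODE M21 annotation, and 49 of them had a row in a gene table of 35666 genes. The members were chosen by name: each gene whose symbol starts with Pcdha, Pcdhb or Pcdhg was taken. By cluster, 11 of 14 alpha, 17 of 22 beta and 21 of 22 gamma genes had a row. Pcdha2, Pcdha4, Pcdha9, Pcdhb4, Pcdhb8, Pcdhb10, Pcdhb12, Pcdhb15 and Pcdhga10 were not analysed here.

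The study measured RNA of gonocytes, the male germ cells of the late fetal and newborn testis, in mice that lack or keep 1 copy of Morc1, a germ cell ATPase. Per the labels, the testes were those of Mvh-Venus transgenic mice, in which the germ cells carry a reporter, and both genotypes shared this transgene. The groups used here are Morc1 (+/-), called het, and the Morc1 knockout, called KO, both at postnatal day 0 (P0), with 3 libraries each. The labels do not say that the libraries of a group came from separate animals, so p-values measure the spread between these samples, which may be technical. Samples of postnatal day 3 were not analysed here. Where the values of a genotype are listed, they stand in the order of its replicates 1, 2 and 3.

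Clustered protocadherins are cell surface adhesion proteins of the cadherin superfamily that bind like molecules on neighbouring cells. They are best known from the nervous system, where each neuron switches on a small set of them and so acquires a surface identity. In the alpha and gamma clusters each gene has its own promoter and its own long first exon, which codes for the extracellular part and is spliced to a set of last exons common to the whole cluster. Beta genes have no such common exons. Promoter choice depends on CTCF and cohesin loops to distant enhancers, and DNA methylation and H3K9 methylation keep the unchosen promoters silent. The C-type genes at the 3' ends of the alpha and gamma clusters (Pcdhac1, Pcdhac2, Pcdhgc3, Pcdhgc4 and Pcdhgc5) are outside this random choice and are expressed in many neurons at once.

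All members lie on the plus strand of chromosome 18 (GRCm38). The alpha genes span positions 36930184 to 37187661, the beta genes 37264938 to 37524479 and the gamma genes 37661793 to 37841873, so the locus is 912 kb long. The common last exons, and any other gene that overlaps a member, decide what a count per gene can hold. The exon sequence that no other annotated gene shares was 46.4% of a gene's exon length in the median alpha gene, 54.7% in gamma and 100% in beta. Overlap was counted with exons of any annotated gene on either strand, so it can exceed the common last exons. Pcdhga10 had 0 of 4732 exon bases of its own by this count. That does not mean that it lacks a first exon of its own in the cluster. Over the whole annotation, 4 of 1247 genes with no exon base of their own had a row (0.321%), against 35556 of 54203 other genes (65.6%). Levels of alpha and gamma members below are therefore set against the length of their own exon sequence. RNA of the common last exons, which are the same exons in every member of a cluster, cannot be assigned to a member.

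**Figure D1:**
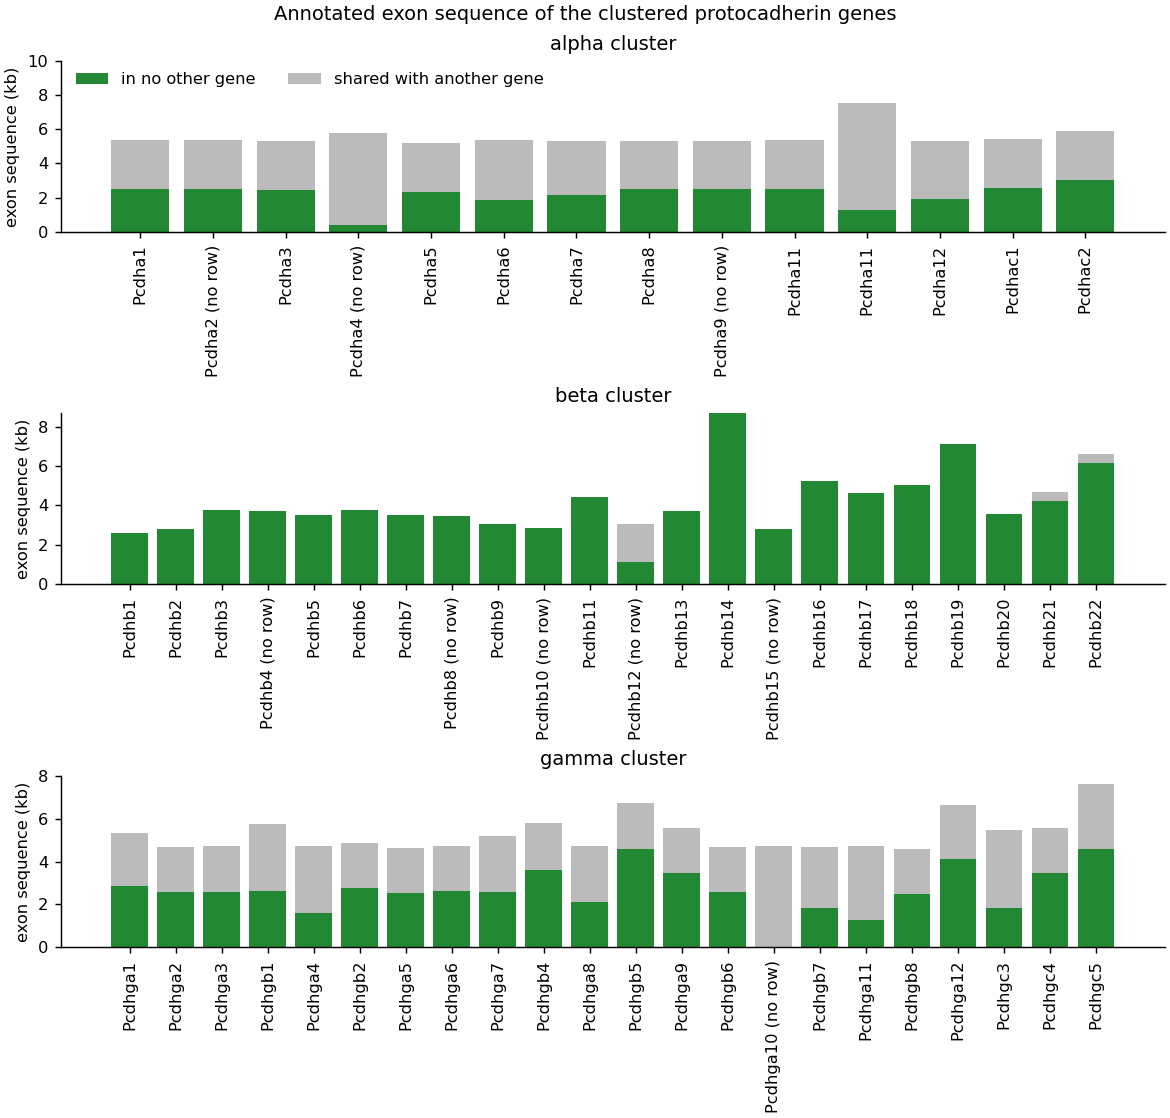
Exon sequence of the 58 annotated members in kb, in chromosomal order (strand ignored), split into bases found in no other gene (green) and bases shared with another gene (grey). Alpha and gamma genes share a large part of their exons, a median of 46.4% and 54.7% being their own, and most beta genes share none.

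The libraries held 28363683 to 32816861 gene reads each. Of all these reads, 0.00455% to 0.00692% fell on the 49 members. As a check of the labels, Morc1 was at 7248, 7485 and 4126 normalized counts in het, against 1360, 1343 and 1794 in KO, a log2 fold change of -2.03 (limma adjusted p = 0.0109). The deleted part of the gene is not given in the sources used here. Of 12 germ cell markers limma and edgeR called 0, with a median log2 fold change of 0.06 and 1 at an unadjusted p under 0.05, Mov10l1. DESeq2, which called 1.54% of all genes tested higher, called Mov10l1 higher in KO at an adjusted p of 0.0397. Ddx4, which encodes the protein Mvh, was between 17605 and 31038 normalized counts in the 6 libraries. Het replicate 3 and KO replicate 3 stood apart in the low counts that most protocadherins have: 1.81% and 2.20% of the 26005 genes tested were at 0 there, against 0.315% to 0.892% in the other 4 libraries.

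The gamma cluster held most of the protocadherin signal in these cells. Gamma members made up 74.1% to 86.1% of the summed normalized counts of all members in each of the 6 libraries. Per kb of own exon sequence, the median gamma gene had a mean of 16.6 normalized counts over the 6 libraries, the median alpha gene 2.37 and the median beta gene 1.64. All 21 gamma genes with a row had a mean of at least 10 normalized counts, the level needed to enter the test, whereas 3 of 11 alpha and 6 of 17 beta genes did. The members that passed did so by their mean over both genotypes. Pcdhga9, Pcdhb1, Pcdhb7 and Pcdhb22 had het means under 10 (2.54, 8.96, 7.39 and 4.78) and passed through their KO values. Their estimates are thus not free of the filter.

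The C-type gene Pcdhgc5 was the highest member at 76.5 normalized counts per kb of own exon. Even so it stood at percentile 41.9 of the 19162 protein-coding genes with at least 200 bases of own exon. Pcdhgc4, which is known to be needed for the survival of many neurons, followed at 47.1. The alternate gene Pcdhga11 and the C-type gene Pcdhgc3 followed at 43.3 and 42.7, and the alternate gene Pcdhga12, the last before the C-type genes, at 42.6. These next 4 differ by less than the spread of any of them between libraries, and their order carries no weight. Own exon sequence was only 26.4% of the exon length in Pcdhga11 and 33.1% in Pcdhgc3, beside the gamma median of 54.7%. It leaves out bases that another gene overlaps on either strand. If reads were counted by strand, the values per kb of these 2 genes could be lower, and strand handling is not known. Pcdhgc5 was the highest gamma gene per kb in 5 of 6 libraries, KO replicate 2 having Pcdhgc4 above it.

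In the alpha cluster, levels were concentrated in 3 genes, Pcdhac2 at 28.2, Pcdha8 at 14.3 and Pcdhac1 at 10.6 normalized counts per kb of own exon. Without KO replicate 3 Pcdha8 was at 9.18, below Pcdhac1 at 9.40. The other 8 alpha genes with a row had means of 1.81 to 6.03 normalized counts each, below the level for a test. The highest beta genes per kb were Pcdhb21 at 4.83, Pcdhb1 at 4.15 and Pcdhb7 at 3.10. Single libraries carried these means: Pcdhb1 was at 2.08 without KO replicate 1, Pcdhb7 at 1.95 without KO replicate 2 and Pcdhb21 at 3.30 without KO replicate 3, so the order among beta genes carries no weight. Pcdhb21 was at percentile 7.32 of protein-coding genes. In these bulk samples, few cells with much RNA of a member and many cells with little cannot be told apart, and fewer cells of a type and less RNA per cell cannot be told apart either.

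**Figure D2:**
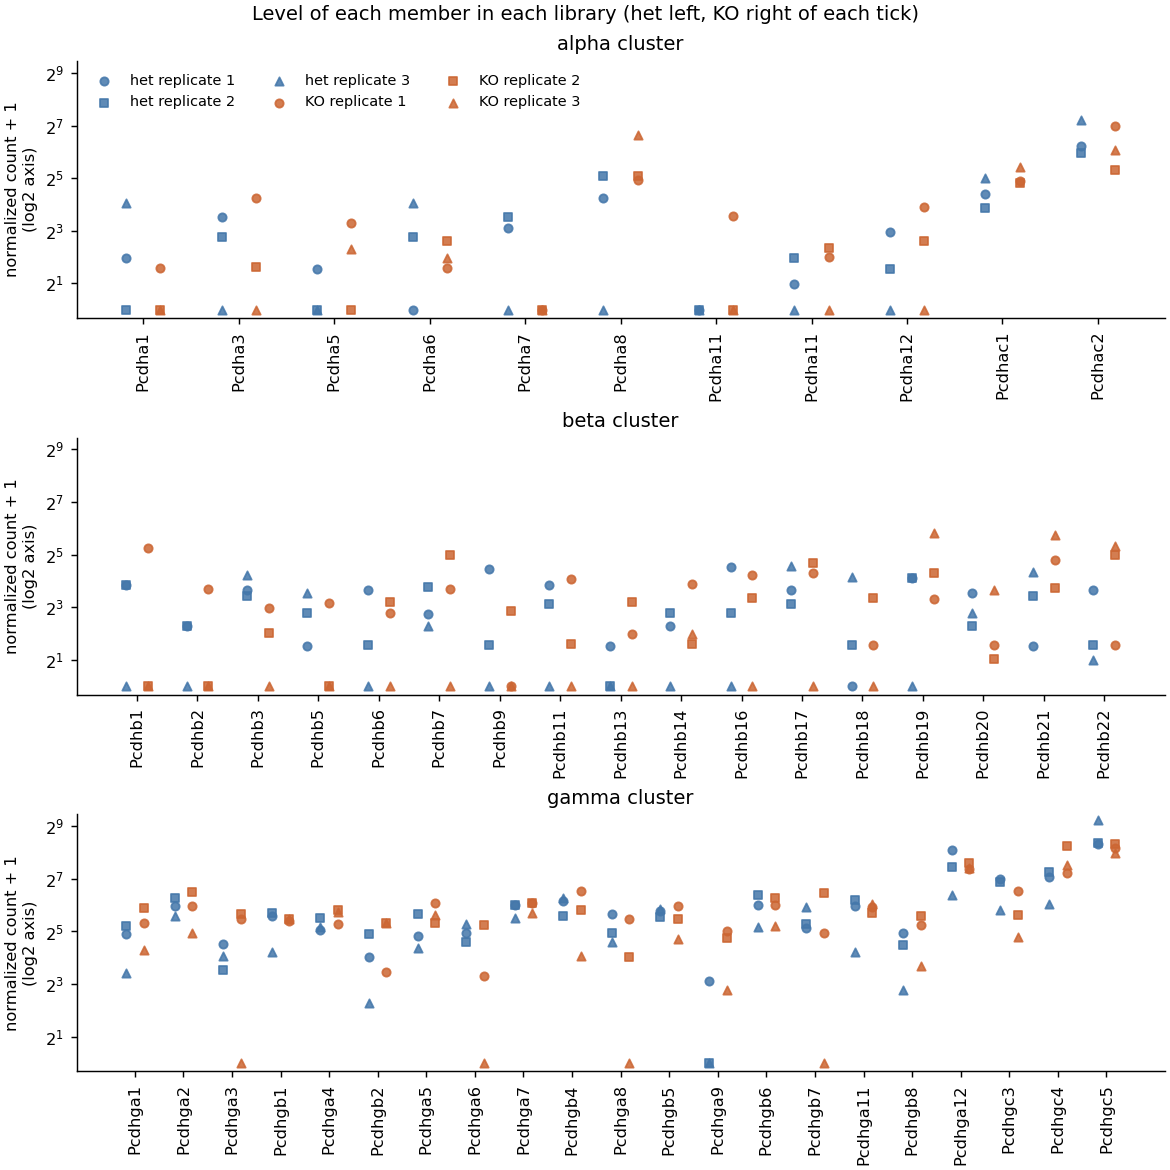
Normalized count plus 1 (log2 axis) of each of the 49 members with a row in each library, in chromosomal order, with het in blue and KO in orange and the replicate given by the symbol. Gamma genes sit above most alpha and beta genes, and most points at the bottom, where the count is 0, are triangles (replicate 3 of either genotype).

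Zero values followed the library more than the genotype. Of the 49 members, 3, 5 and 17 were at 0 in the het libraries, and the KO libraries had 2, 7 and 22 at 0. Replicates 3 of the 2 genotypes were thus alike in this, and the groups overlapped. They held 39 of the 56 zero values, and 12 members were at 0 in both. Members were above 3 reads, the limit that a count of 0 allows, in 40, 38 and 31 cases by het library and in 40, 37 and 25 by KO library. A zero in these libraries therefore sets an upper limit of 3 reads for the gene and covers counting error only.

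To ask whether loss of Morc1 changed protocadherin expression, the 30 members with a mean of at least 10 were read from a limma fit over all 26005 genes tested. No member differed between the genotypes at an adjusted p under 0.05: 0 of 30 were higher and 0 lower in KO. Of all genes tested, 0.431% were higher and 0.0423% lower, and 0 of 30 is near these shares. On the recovered reads edgeR called 0 of 30 either way (0.465% of all genes tested higher, 0.0308% lower), and so did DESeq2 (1.54% higher, 0.25% lower). Adjusted p-values of the members ran from 0.637 to 0.997 with limma. At an unadjusted p under 0.05 there was 1 member, Pcdhga9, against 6.86% of all genes tested. Estimates ran from -2.08 to 3.15 on the log2(normalized count + 1) scale, with 16 positive and 14 negative and a median of 0.13, beside a median of -0.02 over all genes tested. By cluster the medians were 0.62 over 3 alpha, 0.81 over 6 beta and 0.09 over 21 gamma genes, and that of beta was -0.25 over all listed beta genes and -0.36 without het replicate 3.

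The intervals set how much these data can say. Standard errors of the log2 fold changes ran from 0.31 for Pcdhgc5 to 1.76 for Pcdhb1. The 95% interval lay within a 2-fold change in either direction for 1 of 30 members, Pcdhga7, at -0.77 to 0.96. For the other 29 the interval includes changes of 2-fold or more, so these data limit their response less. The 3 clusters are taken in turn below.

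**Figure D3:**
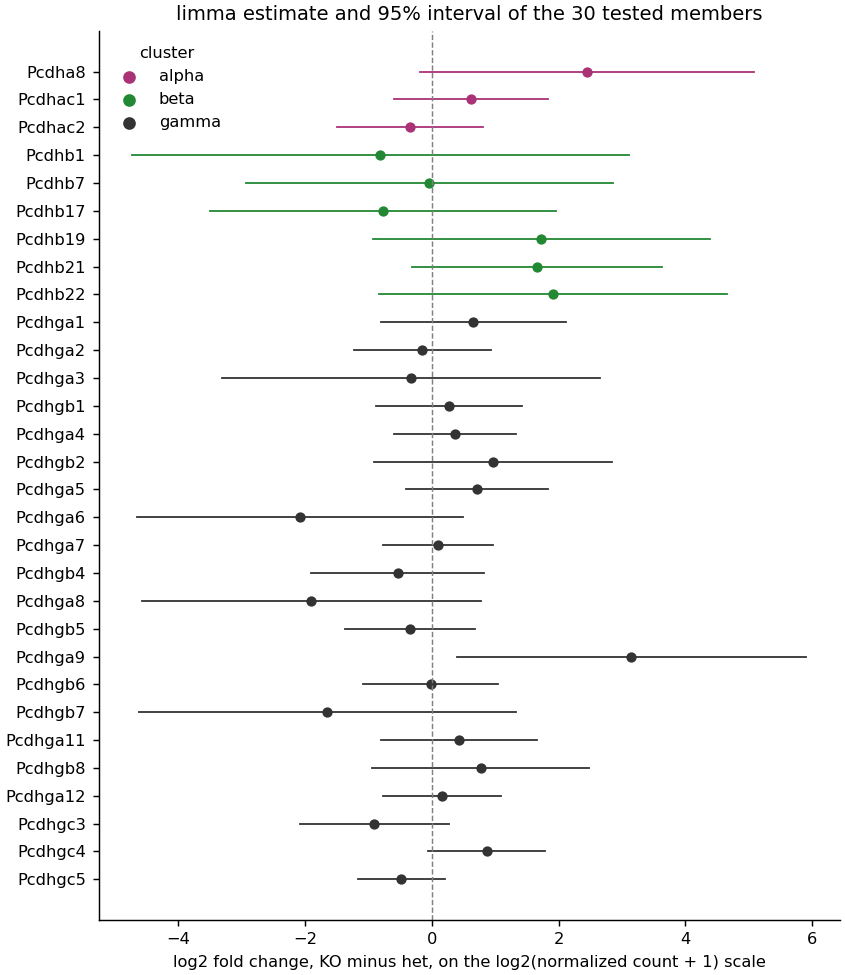
limma log2 fold change (KO minus het, points) and 95% interval (lines) of the 30 tested members in chromosomal order, coloured by cluster, on the log2(normalized count + 1) scale. The interval of 29 of 30 members includes 0, the exception being Pcdhga9. The widest interval is that of Pcdhb1 (SE 1.76) and the narrowest that of Pcdhgc5 (SE 0.31).

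Among the gamma C-type genes, Pcdhgc5 had 323, 326 and 604 normalized counts in het and 290, 321 and 251 in KO. All KO values were lower than all het values, with het replicate 3 far above the rest and KO replicate 2 only just below the lowest het library. This was the only one of the 30 tested members whose groups did not overlap, while 7.17% of all tested genes had each KO value above the het values and 5.57% had each below. The log2 fold change was -0.48 (SE 0.31, 95% interval -1.17 to 0.21, limma adjusted p = 0.857).

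Pcdhgc4 had 132, 153 and 65.3 normalized counts in het, and KO had 147, 304 and 181. KO replicate 1 lay within the het range, so the groups overlapped (0.87, SE 0.42, limma adjusted p = 0.776). Pcdhgc3, which is also known from cells outside the nervous system, was at 125, 118 and 55.6 in het, while KO had 93.0, 48.6 and 26.5. The lower values were the KO libraries and het replicate 3, again with overlap (-0.91, SE 0.53, limma adjusted p = 0.827). The estimates of neighbouring C-type genes thus had opposite signs, negative for Pcdhgc3, positive for Pcdhgc4 and negative for Pcdhgc5. Together the C-type genes made up 37.4%, 40.0% and 55.1% of the gamma sum in het, against 35.6%, 38.6% and 42.8% in KO, and the ranges overlapped.

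Among the alternate gamma genes, Pcdhga9 had the largest positive estimate. It was at 7.63, 0 and 0 normalized counts in het and at 31.7, 25.8 and 5.88 in KO. The 2 high libraries were KO replicates 1 and 2, and KO replicate 3 lay below het replicate 1, so the groups overlapped. The log2 fold change of 3.15 (SE 1.24, unadjusted p = 0.029, limma adjusted p = 0.637) rests on 8 reads in all het libraries together. Pcdhga9 passed the filter through its KO values, so its p-value is not free of the filter.

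The lowest estimates of the gamma cluster belonged to Pcdhga6 and Pcdhga8. Pcdhga6 had 29.6, 23.2 and 38.0 normalized counts in het and 8.91, 37.2 and 0 in KO. Pcdhga8 had 49.6, 29.9 and 23.4 in het and 43.5, 15.5 and 0 in KO. For both genes the value at 0 was KO replicate 3, and another KO library lay inside the het range. Their log2 fold changes were -2.08 (SE 1.16) and -1.90 (SE 1.20), and without KO replicate 3 they were -0.66 and -0.31.

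Pcdhgb2, the second of the positive estimates among alternate gamma genes, had 15.3, 29.0 and 3.90 normalized counts in het and 9.89, 39.3 and 39.2 in KO (log2 fold change 0.96, SE 0.84). Pcdhga11 had 62.0, 71.5 and 17.6 in het and 59.4, 50.6 and 65.6 in KO (0.43, SE 0.55). In both genes het replicate 3 was the lowest library and the groups overlapped. The same library was the lowest het library for Pcdhga12, at 82.9 normalized counts against 271 and 173 in the other het libraries, with KO at 166, 192 and 170. Without het replicate 3 the estimates were 0.24 for Pcdhgb2 and -0.19 for Pcdhga11.

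In the alpha cluster, Pcdha8 was at 18.1, 32.8 and 0 normalized counts in het and at 29.7, 33.1 and 99.0 in KO. The extremes were the replicates 3 of either genotype, while the other 4 libraries lay together. The log2 fold change was 2.45 (SE 1.18, limma adjusted p = 0.779), and over the fits that left out 1 library it ran from 0.89 to 3.43. The C-type gene Pcdhac1 had 20.0, 13.5 and 31.2 in het and 28.7, 26.9 and 42.1 in KO (0.62, SE 0.55). The C-type gene Pcdhac2, the most abundant of the cluster, had 73.4, 60.9 and 148 in het and 127, 38.2 and 65.6 in KO (-0.35, SE 0.52). Both overlapped between genotypes. The C-type share of the alpha sum was 65.8%, 55.4% and 85.2% in het, against 63.8%, 56.8% and 50.5% in KO.

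The beta genes were sparse in every library. Pcdhb21 had 1.91, 9.66 and 19.5 normalized counts in het and 26.7, 12.4 and 52.9 in KO (log2 fold change 1.66, SE 0.89). Pcdhb22 had 11.4, 1.93 and 0.98 in het and 1.98, 31.0 and 39.2 in KO (1.91, SE 1.23). Pcdhb19 had 16.2, 16.4 and 0 in het and 8.91, 18.6 and 54.9 in KO (1.73, SE 1.19). In all 3 of these genes, which neighbour each other at the 3' end of the cluster apart from Pcdhb20, KO replicate 3 was the highest library and at least 1 KO library lay within the het range. Without het replicate 3 the estimate of Pcdhb19 was 0.35, and without het replicate 1 that of Pcdhb21 was 0.88.

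The other beta genes tested had estimates at or below 0. Pcdhb1, the first gene of the cluster, had 13.3, 13.5 and 0 normalized counts in het and 37.6, 0 and 0 in KO (-0.81, SE 1.76). Pcdhb17 had 11.4, 7.73 and 22.4 in het and 18.8, 24.8 and 0 in KO (-0.77, SE 1.23). Pcdhb7 had 5.72, 12.6 and 3.90 in het and 11.9, 31.0 and 0 in KO (-0.04, SE 1.30). KO replicate 3 was at 0 for each of them, and these 3 estimates turned positive in edgeR and DESeq2. Pcdhb3, below the level for a test and named after its values were seen, had 11.4, 9.66 and 17.6 in het and 6.93, 3.10 and 0 in KO, so that no KO value reached the het range.

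Summing a cluster takes out part of the noise of single genes. The beta sum was 161, 110 and 97.5 normalized counts in het and 193, 167 and 162 in KO. All 3 KO libraries were above all het libraries, but the lowest KO value was 161.67 and the highest het value 161.15. That lowest value, of KO replicate 3, rests mainly on Pcdhb19, Pcdhb21 and Pcdhb22, at 54.9, 52.9 and 39.2. In the same library 12 of 17 beta genes were at 0, so the sum there averages over few genes. The means were 123 ± 33.7 (SD, n = 3) and 174 ± 16.7 (SD, n = 3), a log2 difference of 0.53. A two-sided exact permutation test returned p = 0.1, the lowest that 3 against 3 libraries allow, and 0.6 after Benjamini-Hochberg adjustment over the 6 sums and ratios tested. The separation did not hold with TMM size factors, where the log2 difference was 0.52 (exact permutation p = 0.2). The mean over beta members of log2(normalized count + 1), which weights members equally on the log scale, differed by -0.02 (exact permutation p = 1).

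The alpha and gamma sums overlapped between genotypes. Alpha members summed to 142, 134 and 211 normalized counts in het and to 243, 115 and 214 in KO, a log2 difference of 0.19 (exact permutation p = 0.8). Gamma members summed to 1551, 1491 and 1315 in het and to 1489, 1745 and 1071 in KO, a log2 difference of -0.04 (exact permutation p = 0.8). The balance between clusters did not separate the genotypes either. Log2 differences of the alpha to beta, alpha to gamma and beta to gamma ratios were -0.34, 0.23 and 0.57, with exact permutation p of 0.6, 0.8 and 0.2.

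**Figure D4:**
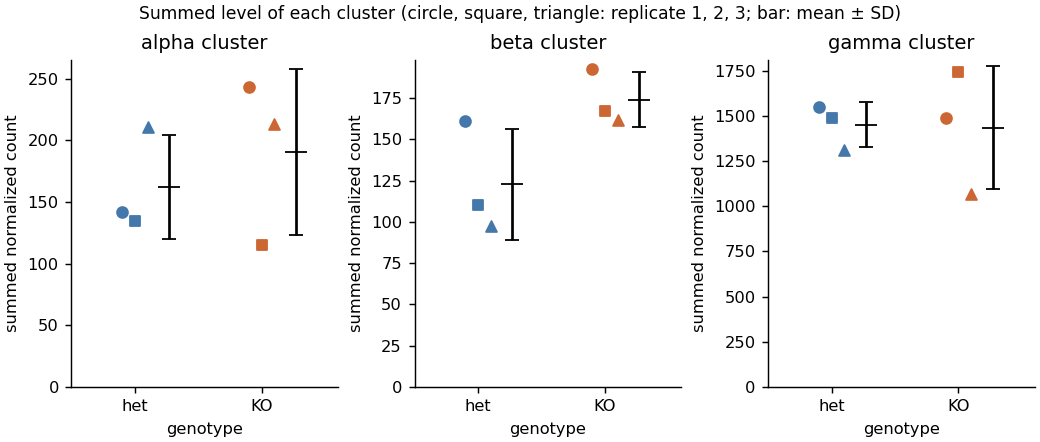
Summed normalized counts of the alpha, beta and gamma members in each library (circle, square and triangle for replicates 1, 2 and 3) with the mean ± SD of 3 libraries at the right of each group, each axis starting at 0. Beta is the one sum in which the 3 KO libraries (162 to 193) lie above the het libraries (97.5 to 161), and the lowest KO and highest het values nearly touch.

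The genes that are known to open, loop or silence the locus were examined as a group. All 20 genes of the CTCF and cohesin list were tested and limma, edgeR and DESeq2 called 0, 1 having an unadjusted p under 0.05. Estimates were positive for 17 and negative for 3, beside 48.4% positive over all genes tested. The median log2 fold change was 0.18, and the list was not tested as a set. The highest was Stag1, a cohesin subunit (0.53, limma adjusted p = 0.756), and the lowest Esco2, a cohesin acetyltransferase (-0.59, limma adjusted p = 0.581). Of 24 silencing factors, which include Setdb1, Smchd1 and DNA methyltransferases, limma and edgeR called 0 and 2 had an unadjusted p under 0.05. Their median log2 fold change was 0.12.

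Wiz, a zinc finger partner of the H3K9 methyltransferases G9a and GLP that has been tied to protocadherin expression, had the highest estimate of the silencing factors. It was at 1104, 1154 and 1457 normalized counts in het and at 2232, 3396 and 2313 in KO, each KO library above each het library. The log2 fold change was 1.08 with a limma adjusted p of 0.126. DESeq2, which called 1.54% of all genes tested higher, called Wiz at an adjusted p of 0.00366. The lowest was Dnmt3b, the methyltransferase that methylates protocadherin promoters in the embryo (-0.43, limma adjusted p = 0.923).

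Genes of protocadherin partners and processing gave similar counts, with 0 of 22 called by limma, edgeR and DESeq2, 2 at an unadjusted p under 0.05 and a median log2 fold change of 0.04. Abi1, a component of the WAVE complex, had the highest estimate (0.64), and Aph1b, a gamma-secretase subunit, the lowest (-0.79), both at limma adjusted p-values of 0.598 and 0.581. All 12 non-clustered protocadherins, single genes outside the 3 clusters, were tested and 0 were called by limma and edgeR, with 2 at an unadjusted p under 0.05 and a median of 0.23. Pcdh15, a hair cell tip link protein, had 442, 423 and 397 normalized counts in het and 704, 698 and 969 in KO (0.89, limma adjusted p = 0.257). DESeq2, which called 1.54% of all genes tested higher, called Pcdh15 at an adjusted p of 0.0281. The highest estimate was that of Pcdh7 (1.00) and the lowest that of Pcdh1 (-1.99), whose 3 KO libraries were at 234, 907 and 1.96 normalized counts. Pcdh1 lies 344041 bp past the gamma cluster on the same chromosome.

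Cell types other than gonocytes could also carry protocadherin RNA. Of 14 neuron and glia markers, 0 were called by limma, edgeR and DESeq2 and 0 had an unadjusted p under 0.05, with a median log2 fold change of -0.15, and their sum ran from 7341 to 7720 normalized counts in het and from 6706 to 7654 in KO. None of them was at 0 in any library. Sertoli cell markers had 8 of 8 negative estimates with a median of -0.69, 4 of them at an unadjusted p under 0.05. Their sum was 17918 to 38072 in het and 12854 to 18415 in KO, and limma and edgeR called 0. DESeq2, which called 0.25% of all genes tested lower, called 1 of the 8, Clu, as lower in KO. Leydig cell markers summed to 24921 in 1 het library, replicate 3, and to 510 to 1079 in the other 5 libraries, with 5 of 5 negative estimates and 0 called by any of the 3 tools. Of 12 markers of other somatic cells 0 were called by these tools and 0 had an unadjusted p under 0.05, with a median of 0.05. The part of these cell types in the protocadherin values was not tested.

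Reads of transposable elements (TEs) inside the locus were compared next, and 2 copies, in the alpha and beta clusters, were higher in KO with both limma and edgeR. TEs are repeated sequences, many of them silenced by DNA methylation in male germ cells, and the TE table gives reads per genomic copy without family names. The locus from Pcdha1 to Pcdhgc5 held 84 listed copies, of which 13 had a mean of at least 10 normalized counts and were tested in a limma fit over 49781 copies. With limma, 3 of 13 were higher in KO and 0 lower, at an adjusted p under 0.05, and 2 of the 7 tested inside the cluster spans were among them. Of all copies tested, limma called 15.6% higher and 0.735% lower, so its count in the locus is near the background share. The share of all copies that edgeR called is not given here, so its 2 calls cannot be set against a background. The estimate was positive for 12 of 13, with a median log2 fold change of 1.74 beside 0.03 over all copies tested. This tally is open to the filter, since 10 of the 13 copies had a het mean under 10 and passed through their KO values. How much of it the filter explains was not tested. The 2 copies called by both tools, copies 1 and 6 below, are among these 10, at het means of 3.77 and 0. Their adjusted p-values are thus not free of the filter.

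Copy 6 lies between Pcdhb1 and Pcdhb2, from position 37279621 to 37280891 on the minus strand (1271 bp), 12096 bp past the end of Pcdhb1 and 13921 bp before Pcdhb2. It was at 0 in all 3 het libraries and at 125, 55.7 and 58.2 normalized counts in KO. The groups did not overlap, as for 22.8% of all copies tested in this direction. KO was at least 25.4-fold higher, taking 3 reads per het library as the floor (limma adjusted p = 0.000615). The adjoining members overlapped between genotypes: Pcdhb1 had 37.6, 0 and 0 normalized counts in KO, and Pcdhb2 had 3.81, 3.86 and 0 in het and 11.9, 0 and 0 in KO.

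Copy 1 lies within the alpha cluster, from 37043107 to 37046073 on the minus strand (2967 bp), between the first exons of Pcdha12 and Pcdhac1 and 43940 bp before Pcdhac1. It overlaps no protocadherin exon. It had 8.44, 0 and 2.88 normalized counts in het and 98.2, 26.3 and 59.9 in KO, with all KO libraries above all het libraries. The log2 fold change was 4.05 (SE 0.88, limma adjusted p = 0.00850). Without KO replicate 1 or KO replicate 3 the adjusted p was 0.0848 or 0.0538. Pcdhac1 has its promoter downstream of this copy, and its own values overlapped between genotypes as given above.

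Copy 4 lies between the alpha and beta clusters, from 37239952 to 37241879 on the plus strand (1928 bp), 52295 bp past the end of Pcdhac2 and 23059 bp before Pcdhb1. It had 43.2, 38.1 and 8.63 normalized counts in het and 83.0, 81.3 and 130 in KO, without overlap. The log2 fold change was 1.92 (SE 0.58, limma adjusted p = 0.0438). The call did not hold in edgeR (adjusted p = 0.123) or without any 1 of het replicate 3 and KO replicates 1, 2 and 3 (adjusted p = 0.0637 to 0.169), and over the fits without 1 library the estimate ran from 1.22 to 2.32. Copies 3 and 5 abut it on the same strand and may share reads with it; they had log2 fold changes of 1.74 and 2.15 and were not called.

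The listed copies were also summed by place. Copies inside the alpha cluster summed to 30.7 ± 9.59 normalized counts in het and 154 ± 55.4 in KO (SD, n = 3 each), and those inside the beta cluster to 26.3 ± 8.28 and 167 ± 58.4. Copies between the clusters summed to 154 ± 31.1 and 343 ± 39.8. In these 3 places every KO library was above every het library. The sums include the called copies, with KO means of 61.5 for copy 1 (alpha), 79.6 for copy 6 (beta) and 98.1 for copy 4 (between clusters). They are therefore not separate from those calls. Inside the gamma cluster, where protocadherin RNA was highest, the copies summed to 128 ± 47.9 in het and 129 ± 40.4 in KO, and 0 of 3 tested copies were called. No test was made of the difference between these places. Copy 11 in the gamma cluster overlaps an exon of Pcdhgb4, so its reads may be those of that gene.

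**Figure D5:**
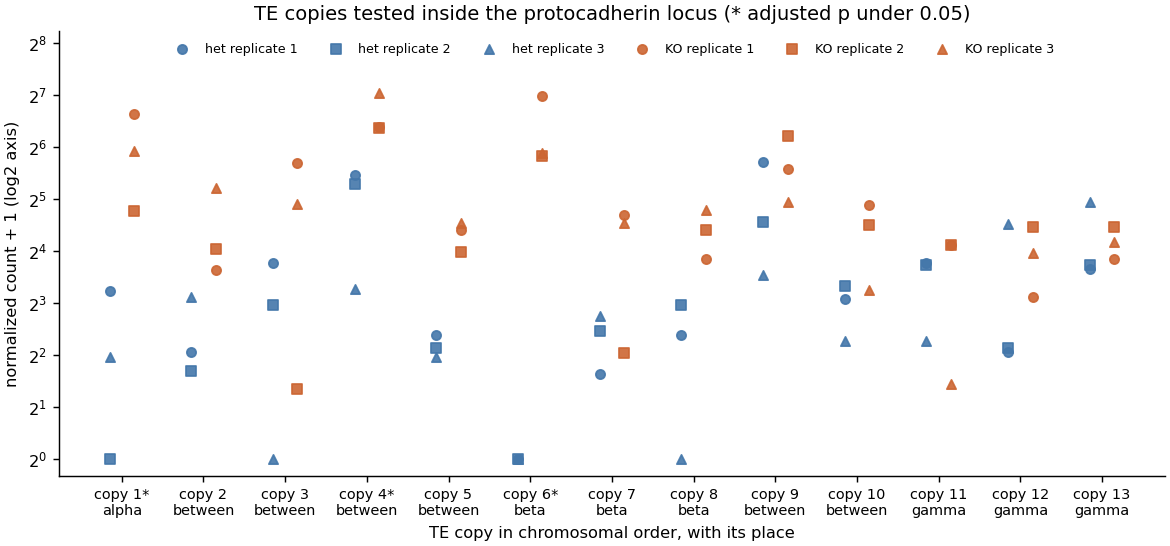
Normalized count plus 1 (log2 axis) of the 13 tested TE copies inside the locus in each library, in chromosomal order with their place, het in blue and KO in orange. The KO libraries lie above the het libraries for the 3 called copies (1, 4 and 6, starred), and the groups overlap for the 3 copies inside the gamma cluster.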

How the data were processed

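The deposited gene and TE tables hold a signal, that is read counts divided by library size factors. The gene table's name says that its factors came from DESeq2, while the TE table's name says read counts only. Scaling of the TE values was inferred from their being whole multiples of 1 step per library. The values of both are called normalized counts here. Per the submitters' processing notes, bcl2fastq 2.20, cutadapt 1.18, HISAT2 2.1.0, featureCounts 1.5.2 and DESeq2 1.26.0 were used with mm10 (GRCm38). Strand handling and how multi-mapping reads were treated are not given in the sources used here. Of the deposited values, 100% were whole multiples (tolerance 0.0001) of 1 step per library, which gave the reads. TE libraries held 1974504 to 3703419 reads. TE values have steps of their own, which were read as size factors of the TE table.

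Of the gene rows, 35560 matched GENCODE M21. Two-sided limma 3.58.1 fits (trend, R 4.3.3) on log2(normalized count + 1) covered genes or copies with a mean of at least 10, het against KO without covariates, with Benjamini-Hochberg adjustment. On this scale a single library at 0 weighs heavily, so estimates of low genes can differ in size or sign from the change of their means. Pcdhb1, for example, had an estimate of -0.81 while its mean was 8.96 normalized counts in het and 12.5 in KO. Sums were compared by exact permutation. edgeR 4.0.16 and DESeq2 1.42.0 on recovered reads, other pseudocounts (0.1, 10), filters, leaving out each library and a replicate block were alternatives. Scripts were tested on simulated data. 2 rows share the symbol Pcdha11 and were kept apart by identifier.

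Members and gene lists were chosen with earlier results of these data known. Described in full were the C-type members, in each cluster the 3 highest per kb of own exon, and the 2 highest and 2 lowest fold changes. Of each list the highest and lowest are named, and other genes named were chosen after their values were seen.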

Additional observations from a re-analysis of the deposited data

How the results depend on the processing

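No member was called higher or lower under any of the alternatives run. For the 17 members described in full, 222 of 238 alternative estimates kept their sign, 16 reversed it and 0 were called, the smallest adjusted p being 0.402. Reversals outside the left-out libraries were Pcdhb1 at 0.49 (DESeq2) and 0.48 (edgeR), Pcdhb7 at 0.95 (DESeq2), 0.94 (edgeR), 0.29 (pseudocount 10) and 0.26 (quantile normalization), and Pcdhb17 at 0.0675 (DESeq2) and 0.0629 (edgeR). Over the fits without 1 library, estimates ran from -0.79 to 0.0639 for Pcdhac2, -2.09 to 0.0675 for Pcdhb1, -0.43 to 1.41 for Pcdhb7, -1.62 to 0.73 for Pcdhb17 and -0.19 to 0.79 for Pcdhga11. The other members kept their sign but moved: -3.28 to -0.66 for Pcdhga6, -3.05 to -0.31 for Pcdhga8, 2.63 to 4.19 for Pcdhga9, 0.24 to 1.59 for Pcdhgb2, -1.36 to -0.47 for Pcdhgc3, 0.50 to 1.10 for Pcdhgc4, -0.63 to -0.18 for Pcdhgc5, 0.89 to 3.43 for Pcdha8, 0.34 to 0.91 for Pcdhac1, 0.35 to 2.42 for Pcdhb19, 0.88 to 2.29 for Pcdhb21 and 1.37 to 3.11 for Pcdhb22. The median log2 fold change of alpha was -0.35 at a minimum mean of 50, where 1 alpha gene was left. The median of beta was -0.25 without a filter and ran from -0.36 (without het replicate 3) to 1.64 over the fits without 1 library. The log2 difference of the beta sum was 1.13 over members with a mean of at least 10 and -0.0203 as a mean of log2 values. That of the beta to gamma ratio was 1.18 over members with a mean of at least 10. The cause was not tested, and Pcdhb1, Pcdhb7 and Pcdhb22 passed this filter through their KO values.

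Of the 7 TE copies tested inside the cluster spans, 2 were called, and 3 of 13 over the whole locus. The count inside the spans was 1 with a pseudocount of 0.1 and 1 to 2 over the fits without 1 library. At a minimum mean of 50 no copy of the spans was left to test. Copy 1 lost its call with a pseudocount of 0.1 (adjusted p = 0.0614), and copy 4 lost it there (0.0693) and under the replicate block (0.0599). Copy 6 was called in every alternative in which it was tested. With gene size factors, chosen after seeing the data, 2 copies inside the spans were called. Copies then summed to 29.0 and 183 in het and KO for alpha, 24.1 and 190 for beta and 121 and 154 for gamma, the last with overlap. Also added after seeing the data, leaving out het replicate 3 and KO replicate 3 together kept the 2 calls in the spans, but copy 4 lost its call, with a log2 fold change of 1.00 and an adjusted p of 0.131.

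Same-numbered het and KO libraries correlated at 0.138, -0.163 and -0.0438 in their deviations from the group means, so same-numbered libraries were not taken as pairs, although replicates 3 of both genotypes had many genes at 0. With the replicate block 0 members were called and 2 TE copies inside the cluster spans. The mean difference between same-numbered libraries equals the difference of the group means by construction. Its values of 0.19, 0.53 and -0.04 for the alpha, beta and gamma sums are therefore no separate check.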

Other observations

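Other genes in and around the locus were also compared. Inside it, limma covered 6 non-coding genes and called 0. All 6 estimates were positive, beside 48.4% of those of all genes tested, with a median log2 fold change of 0.38. At an unadjusted p under 0.05 there were 0. The most abundant was 3222401L13Rik, a lincRNA just before the gamma cluster, at 147, 234 and 217 normalized counts in het and 271, 455 and 163 in KO. KO replicate 3 lay inside the het range, so the groups overlapped. Gm29994, annotated antisense to the 3' end of the gamma cluster, had 45.8, 20.3 and 31.2 in het and 69.3, 65.1 and 32.3 in KO (0.76, limma adjusted p = 0.86). Without known strand handling, its reads cannot be told apart from those of gamma genes that overlap it.

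Within 500 kb of the clusters, 28 protein-coding genes other than members were tested and 0 were called by limma, edgeR and DESeq2, with 14 positive and 14 negative estimates and a median of -0.01. At an unadjusted p under 0.05 there was 1, Tmco6. Diaph1, which encodes an actin-nucleating formin and ends 1728 bp past the gamma cluster on the minus strand, had 898, 850 and 1602 normalized counts in het and 769, 1288 and 704 in KO. Het replicate 3 was its highest library, as for Pcdhgc5, and its groups overlapped. On the alpha side the nearest protein-coding gene tested, Zmat2, had 1595, 1382 and 2742 in het and 1431, 2297 and 1448 in KO, with overlap.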
